A study of Mus musculus with 8 samples.

Results

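The genes described here encode the matrix metalloproteinases (MMPs), their tissue inhibitors (TIMPs), the ADAM and ADAMTS metalloproteinases and the ADAMTS-like (ADAMTSL) glycoproteins, measured by RNA-seq in cultured mouse adipocytes. The members were all protein-coding genes of these families, found by symbol, with at least 10 counts summed over the 8 libraries. This gave 50 of the 43629 genes listed, namely 11 of 22 MMP, 4 of 4 TIMP, 16 of 33 ADAM, 14 of 19 ADAMTS and 5 of 5 ADAMTSL genes. The other 33 protein-coding genes of the families had fewer than 10 counts, and 17 of these had 0 counts.

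3T3-L1 is an established mouse line of fibroblast-like preadipocytes that fills with lipid when induced with a hormone cocktail, here insulin, dexamethasone, isobutylmethylxanthine and rosiglitazone, which cells of every group had received. After 8 days of differentiation the adipocytes were left untreated, or exposed for 24 h to 2 uM A66, to 0.5 mM palmitate carried on albumin, or to palmitate plus A66, with 2 libraries per group. A66 is an inhibitor selective for p110alpha, a catalytic subunit of phosphoinositide 3-kinase that carries the insulin signal, and palmitate is a saturated fatty acid. The comparisons ask which transcripts change when p110alpha is inhibited, when the cells are loaded with saturated fat, and when the first is done in the presence of the second. The study's methods give another dose of A66 and a vehicle control, and the labels were followed here. All libraries come from this cell line. The methods call the libraries of a group biological repeats, the labels do not say whether these were separate cultures, and p-values measure the spread between these libraries. A66 acts on enzyme activity, so no transcript checks which libraries received it, and every direction rests on the sample labels.

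Libraries held 42247091 to 57529803 counts, of which the members took 0.2874% to 0.305%. The cells carried adipocyte transcripts, with all 10 adipocyte markers detected and a summed level of 14500 to 17206 CPM, the counts of a gene scaled to a common library size. Of the 10 preadipocyte and fibroblast markers 9 were detected, with a summed level of 1428 to 1655 CPM in which Col1a1 (mean 639.1 CPM) was the highest, and Dlk1, which is lost on differentiation, had 0 counts. Adgre1, a defining macrophage marker, had 0 counts, with the 8 macrophage markers together at 13.2 to 19.0 CPM. In a bulk library a lower level can reflect fewer cells of a type or less RNA per cell, and these cannot be told apart.

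MMPs are secreted or membrane-anchored zinc endopeptidases made as inactive precursors, and together they cut collagens, gelatin and other matrix proteins. TIMPs bind the active site and block it, so the balance of the families sets how much matrix is turned over, and in adipose tissue matrix remodelling accompanies the enlargement of fat cells. ADAM proteins are membrane proteins, some of which shed growth factors, cytokines and receptors from the cell surface. ADAMTS proteins are secreted enzymes that cut proteoglycans or process procollagen, while ADAMTSL proteins resemble them but have no protease domain.

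The catalytic zinc of these enzymes is held by 3 histidines in a short signature, in which a glutamate follows the histidine at the start and a glycine, or in some ADAMTS proteins an asparagine, stands between the second and the last histidine. Translation of the GENCODE M21 coding sequences found the signature in 34 of the 50 members, in all 11 MMP, in 10 of 16 ADAM and in 13 of 14 ADAMTS genes. The 5 ADAMTSL and 4 TIMP genes lacked it, as did Adam2, Adam4, Adam5, Adam11, Adam23, Adam32 and, under these letters, Adamts8. The asparagine form was present in 4 members, Adamts1, Adamts4, Adamts9 and Adamts15. The coding stretches of the 4 proteases called in a comparison below, and of Mmp14, the most abundant membrane-anchored MMP, are shown 5′ to 3′ on the coding strand, with capitals on the codons of the histidines, the glutamate and the glycine or asparagine. They lie in GRCm38 at chr10:75926931-75926963 (minus strand, Mmp11), chr14:54437627-54437659 (plus, Mmp14) and chr7:133961158-133961190 (minus, Adam12), each within an exon, and across an exon junction between chr15:11241529-11255564 (plus, Adamts12) and chr6:92905285-92908493 (minus, Adamts9).
Mmp11: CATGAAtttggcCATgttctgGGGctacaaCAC
Mmp14: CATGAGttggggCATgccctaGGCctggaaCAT
Adam12: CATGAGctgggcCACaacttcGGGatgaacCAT
Adamts12: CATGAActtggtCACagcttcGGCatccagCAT
Adamts9: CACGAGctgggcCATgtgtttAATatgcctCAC

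Levels of different genes were set side by side as CPM per kilobase of merged exon length, averaged over the 8 libraries. Mmp11 (stromelysin-3), an MMP that is activated inside the cell by furin-type convertases and acts poorly on most classical matrix substrates, was the highest member at 187.1 CPM per kb, with a range over libraries of 146.7 to 224.8. The next were Mmp2 (gelatinase A), which cuts denatured collagen, at 72.7 CPM per kb, Mmp14 (MT1-MMP), which activates the MMP-2 precursor at the cell surface, at 57.4, and Adamts1, a versican-cleaving enzyme, at 50.6. Timp2, whose product bridges MMP-14 and the MMP-2 precursor, stood at 50.3 CPM per kb. These 5 genes did not form a strict order, because the ranges of Timp2 (45.7 to 53.8), Adamts1 (48.0 to 52.3) and Mmp14 (53.6 to 60.4) touched or overlapped.

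Among the sheddases Adam9 stood at 48.6, Adam10 at 29.7, Adam15 at 26.6 and Adam17, the enzyme that releases tumour necrosis factor, at 7.27 CPM per kb. The other TIMPs were lower than Timp2, with Timp1 at 18.2, Timp3, the matrix-bound inhibitor, at 1.80 and Timp4 at 1.503 CPM per kb. Mmp9 (gelatinase B), Mmp3 and Mmp13, which are typical of inflamed or remodelling tissue, were present only at 0.160, 0.176 and 0.351 CPM per kb. The weakest members, such as Adam2 with a range of 0 to 0.0803 CPM and Adamts8 with 0 to 0.111 CPM, lay at or near the 0.0522 to 0.0710 CPM that 3 counts are worth in these libraries, so a level of 0 there does not show absence.

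**Figure D1:**
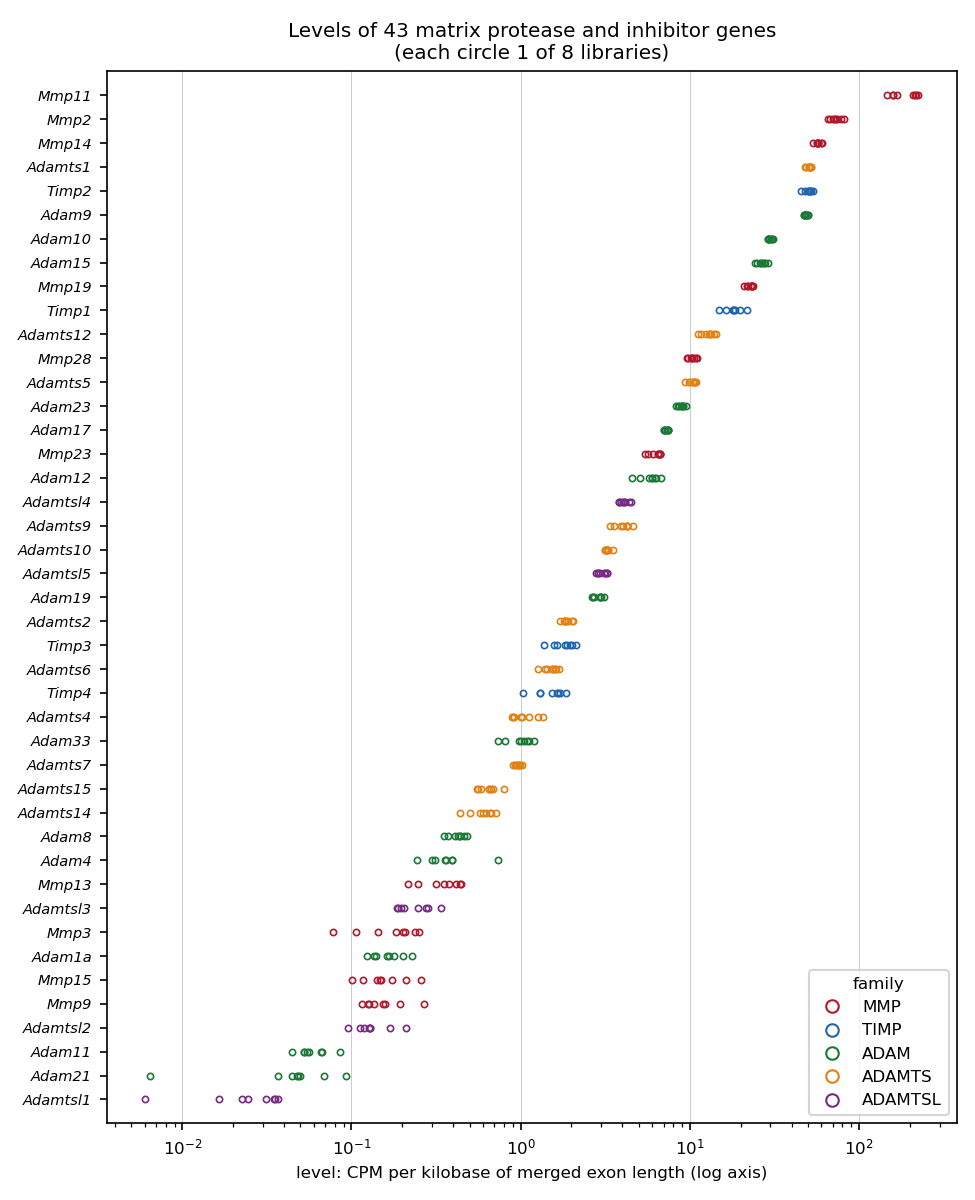
Level of each of the 43 members that passed the low-count filter with all 8 libraries, in CPM per kilobase of merged exon length on a log axis, with 1 circle per library and a colour per family. Mmp11 leads at 146.7 to 224.8 CPM per kb and its circles form a lower and a higher cluster, which are the libraries without and with A66.

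The low-count filter left 42 members to be tested for A66 against untreated, fitted on those 4 libraries, and 43 members for the other comparisons, fitted on all 8. The 8 members not tested in the 4-library fit were low genes, so the counts below are over the members that passed and not over all 50. A gene was called when its Benjamini-Hochberg adjusted p from the edgeR quasi-likelihood test, adjusted over all genes tested, was under 0.05.

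A66 alone raised Mmp11, and no other member passed the test. The Mmp11 level was 439.7 and 440.3 CPM in the untreated libraries and 582.0 and 604.7 CPM in the A66 libraries. The groups did not overlap, and the gap between them was larger than the spread within either group. The increase was 34.5%, a log2 fold change of 0.43 (95% interval 0.35 to 0.51, n = 2 per group, edgeR adjusted p = 5.89e-07). Mmp11 (ENSMUSG00000000901) lies on the minus strand of chromosome 10 at 75923222-75936496 in GRCm38. It was called in this comparison under every alternative setting in which an adjusted p was computed, with log2 fold changes of 0.40 to 0.46.

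Of the 42 members tested, 1 was called higher and 0 lower, where 1.07% of all 14158 genes tested were called higher and 0.77% lower. Unadjusted p was under 0.05 for 8 members, or 19.0% of them, against 12.8% of all genes, and DESeq2 called 1 member. The median log2 fold change of the members was -0.01 and that of all genes tested -0.001. The members with the next smallest p-values were Adam15 (metargidin, an integrin-binding ADAM), at 169.3 and 170.9 CPM without and 149.6 and 158.9 CPM with A66, and Adamts5, an aggrecan- and versican-degrading enzyme, at 107.2 and 101.7 against 113.3 and 114.4 CPM. Neither pair of groups overlapped, but the edgeR adjusted p-values were 0.0918 and 0.202. Without untreated replicate 1 both passed the threshold (adjusted p 0.0422 and 0.0320), and without untreated replicate 2 Adam15 and Adamts9 did (0.0473 for each), so the untreated libraries decide whether 1 or 3 members are called. Adam15 also passed on scaling to total counts without TMM. Adam1a, a low ADAM gene at 1.52 and 1.72 against 0.929 and 1.04 CPM, did not pass (log2 fold change -0.72, 95% interval -1.29 to -0.16, adjusted p = 0.225), and its counts are uncertain. It shares 24.0% of its exon length with Mapkapk5 on the same strand, which stood at 56.2 to 63.0 CPM, and 63.7% with Gm42878, which was not analysed here.

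Among the markers of other cell types 1 was called in the same comparison. Of the preadipocyte and fibroblast markers Acta2, the smooth muscle actin of myofibroblasts, was called higher, at 190.0 and 188.7 CPM without and 204.2 and 242.6 CPM with A66 (17.7% higher, edgeR adjusted p = 0.0262). That call was lost under DESeq2 (0.708), with all 8 libraries in the fit (0.251) and without A66 replicate 2 (0.623). The median log2 fold change of the 9 markers tested in this list was -0.086. Col1a1 (626.2 and 626.0 against 587.4 and 594.6 CPM) and Postn (310.6 and 276.4 against 275.8 and 257.5 CPM) were lower. So was Thy1 (33.1 and 31.8 against 26.8 and 29.7 CPM), while the means of Pdgfra, Pdgfrb and Ly6a were higher, all without a call. The summed level of this list was 1485 and 1429 CPM untreated and 1428 and 1460 CPM with A66. That of the adipocyte markers, of which 0 of 10 were called, was 16909 and 16915 against 17206 and 16596 CPM. The part of these transcripts in the Mmp11 result was not tested.

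Mmp11 was also higher when A66 was added on top of palmitate. The level was 407.6 and 465.5 CPM with palmitate and 593.1 and 624.4 CPM with palmitate plus A66, again without overlap. The log2 fold change was 0.48 (95% interval 0.38 to 0.59, 39.8% higher, edgeR adjusted p = 1.65e-05), and it stayed between 0.39 and 0.58 and past the adjusted p threshold under every alternative that gave an adjusted p. The interaction term, which is the A66 effect with palmitate minus that without it, was 0.06 for Mmp11 (95% interval -0.09 to 0.21, adjusted p = 0.899), so no difference between the effects was detected and a difference of up to 0.21 on the log2 scale remains within the interval. Palmitate itself gave log2 fold changes for Mmp11 of -0.02 without A66 and 0.04 with it, with adjusted p-values of 0.919 and 0.802.

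Since Mmp11 is also the most abundant member, it took 15.05% and 15.5% of all member counts in the untreated libraries, 13.89% and 15.41% with palmitate, 19.11% and 19.82% with A66 and 19.47% and 20.57% with both. The share of each library that fell on the remaining members was 0.2514% and 0.2428% untreated and 0.246% and 0.2445% with A66, which overlapped, and 0.2536% and 0.2544% with palmitate against 0.2445% and 0.2367% with both, which did not. Mmp11 shares 155 exon bases, or 5.6% of its exon length, with Chchd10 on the opposite strand. Chchd10 was at 7.04 and 8.01 CPM untreated and 9.25 and 9.35 CPM with A66 (log2 fold change 0.30, 95% interval 0.07 to 0.53, edgeR adjusted p = 0.212), and its part in the Mmp11 result was not tested. Whether reads of the opposite strand were kept apart in the counting is not given in the sources used here.

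**Figure D2:**
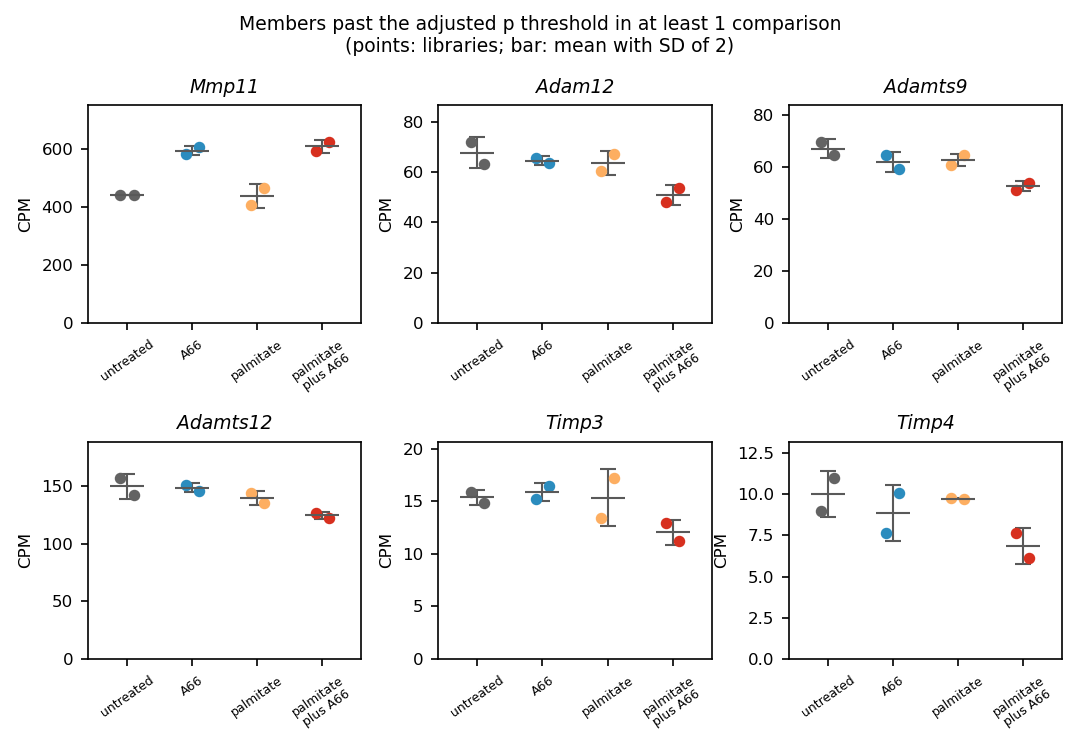
CPM in each of the 8 libraries (points) for the 6 members called in at least 1 comparison, with the mean and SD of the 2 libraries of each group and axes that start at 0. Mmp11 sits at 407.6 to 465.5 CPM without A66 and at 582.0 to 624.4 CPM with it, while the other 5 genes are lowest in the palmitate plus A66 libraries.

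With palmitate present, A66 lowered 3 members, Adam12, Adamts9 and Timp4. Adam12 (meltrin alpha), an ADAM that sheds heparin-binding EGF-like growth factor, cleaves insulin-like growth factor binding proteins and has been linked to fat cell formation, was at 60.3 and 67.0 CPM with palmitate and at 48.2 and 53.8 CPM with palmitate plus A66. The groups did not overlap, and the log2 fold change was -0.32 (95% interval -0.45 to -0.18, 19.6% lower, edgeR adjusted p = 0.00654). Adamts9, a widely expressed versican- and aggrecan-cleaving enzyme, was at 60.8 and 64.3 CPM with palmitate and at 51.2 and 53.9 CPM with both. The log2 fold change was -0.25 (95% interval -0.36 to -0.13, 15.8% lower, adjusted p = 0.0122).

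Timp4, an inhibitor typical of heart and fat, was at 9.75 and 9.70 CPM with palmitate and at 7.64 and 6.10 CPM with palmitate plus A66. Its log2 fold change was -0.50 (95% interval -0.77 to -0.22, 29.2% lower, edgeR adjusted p = 0.0434), the largest of the 3 in size and the closest to the threshold. Timp4 overlaps exons of Syn2 on the opposite strand by 90 bases, or 1.5% of its exon length. Syn2 was more abundant, at 61.1 and 68.2 CPM with palmitate and 51.5 and 51.9 CPM with both, and was also lower (log2 fold change -0.32, adjusted p = 0.00195, and 0.0659 without palmitate replicate 2). With A66 alone Syn2 was also called lower (-0.45, edgeR adjusted p = 1.36e-05), as it was with palmitate alone (-0.25, 0.0243). Timp4 was not called in either (-0.19, 0.575, and -0.05, 0.917). The part of Syn2 reads in the Timp4 result was not tested.

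These 3 calls depended on individual libraries, while that of Mmp11 did not. Without palmitate replicate 2 Adam12 (adjusted p = 0.138), Adamts9 (0.159) and Timp4 (0.162) were no longer called, and without palmitate plus A66 replicate 1 Adam12 (0.127) and Adamts9 (0.149) were not. Timp4 was also lost without palmitate replicate 1 (0.109) or palmitate plus A66 replicate 2 (0.406). The log2 fold changes stayed negative throughout, between -0.40 and -0.24 for Adam12, -0.29 and -0.21 for Adamts9 and -0.67 and -0.35 for Timp4.

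In all, 1 member was called higher and 3 lower of 43 tested for palmitate plus A66 against palmitate, where 0.973% of the 14587 genes tested were called higher and 1.84% lower. Unadjusted p was under 0.05 for 12 members, or 27.9%, against 14.4% of all genes, and DESeq2 called 4 members. The median log2 fold change was -0.08 for the members and -0.001 for all genes. Below 0 were 27 of the 43 members and 7335 of all 14587 genes. Within the families the medians were -0.02 for the 10 MMP, -0.23 for the 4 TIMP, -0.02 for the 13 ADAM, -0.12 for the 11 ADAMTS and -0.13 for the 5 ADAMTSL genes tested. Adamts12, Mmp19 and Timp3 came next, at adjusted p-values of 0.0822, 0.0930 and 0.0994, all with lower values with A66. Adamts12 passed in 6 of the 16 alternatives that gave an adjusted p, namely scaling by library size only (0.0432), no low-count filter (0.0124), the replicate block (0.0382), the length correction (0.0427) and without either untreated library (0.0330 and 0.0340). Mmp19 passed on scaling by library size only (0.0462), and Timp3 without the filter (0.0136) or without palmitate replicate 1 (0.00673). Adam21, at most 0.271 CPM in any library, had the highest log2 fold change of the members, 1.08 with a 95% interval of -0.58 to 2.75, and gives no reading at this depth.

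For none of these genes was the A66 effect with palmitate shown to differ from that without it. The interaction was -0.24 for Adam12 (95% interval -0.43 to -0.06, adjusted p = 0.494), -0.13 for Adamts9 (-0.29 to 0.03, 0.729) and -0.31 for Timp4 (-0.70 to 0.08, 0.729). No member was called for the interaction (edgeR, 0.00686% of all genes called in either direction), 5 had an unadjusted p under 0.05 against 7.92% of all genes, and DESeq2 called 0. Those 5 were Adam12, Timp2, Timp3, Adam19 and Adamts12, and each had a negative value.

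Some preadipocyte and fibroblast markers were called in this comparison as well. Of the 9 tested Col1a1 (log2 fold change -0.33) and Postn (-0.36) were called lower and Acta2 (0.35) higher. The summed level of the list was 1642 and 1655 CPM with palmitate and 1436 and 1447 CPM with palmitate plus A66. Within it Col1a1 went from 718.8 and 774.6 to 575.9 and 609.7 CPM and Postn from 376.0 and 360.7 to 269.1 and 304.8 CPM. Ly6a lay higher like Acta2, at 18.6 and 15.4 against 24.4 and 19.6 CPM, without a call. Of the 10 adipocyte markers 3 were lower, Cidec, Retn and Slc2a4. Of the 4 macrophage markers tested 0 were called. The 8 macrophage markers together were at 15.35 and 16.6 CPM with palmitate and 17.89 and 18.96 CPM with both. Col1a1, Postn and Retn were called in all 16 alternatives that gave an adjusted p. Without palmitate replicate 2 or without palmitate plus A66 replicate 1 Acta2, Cidec and Slc2a4 were not called (adjusted p up to 0.506, 0.532 and 0.201), Acta2 and Cidec were also lost under DESeq2 (0.484 and 0.366), and Cidec with only the 4 libraries compared in the fit (0.0534). Their part in the changes of Adam12, Adamts9 and Timp4 was not tested.

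**Figure D3:**
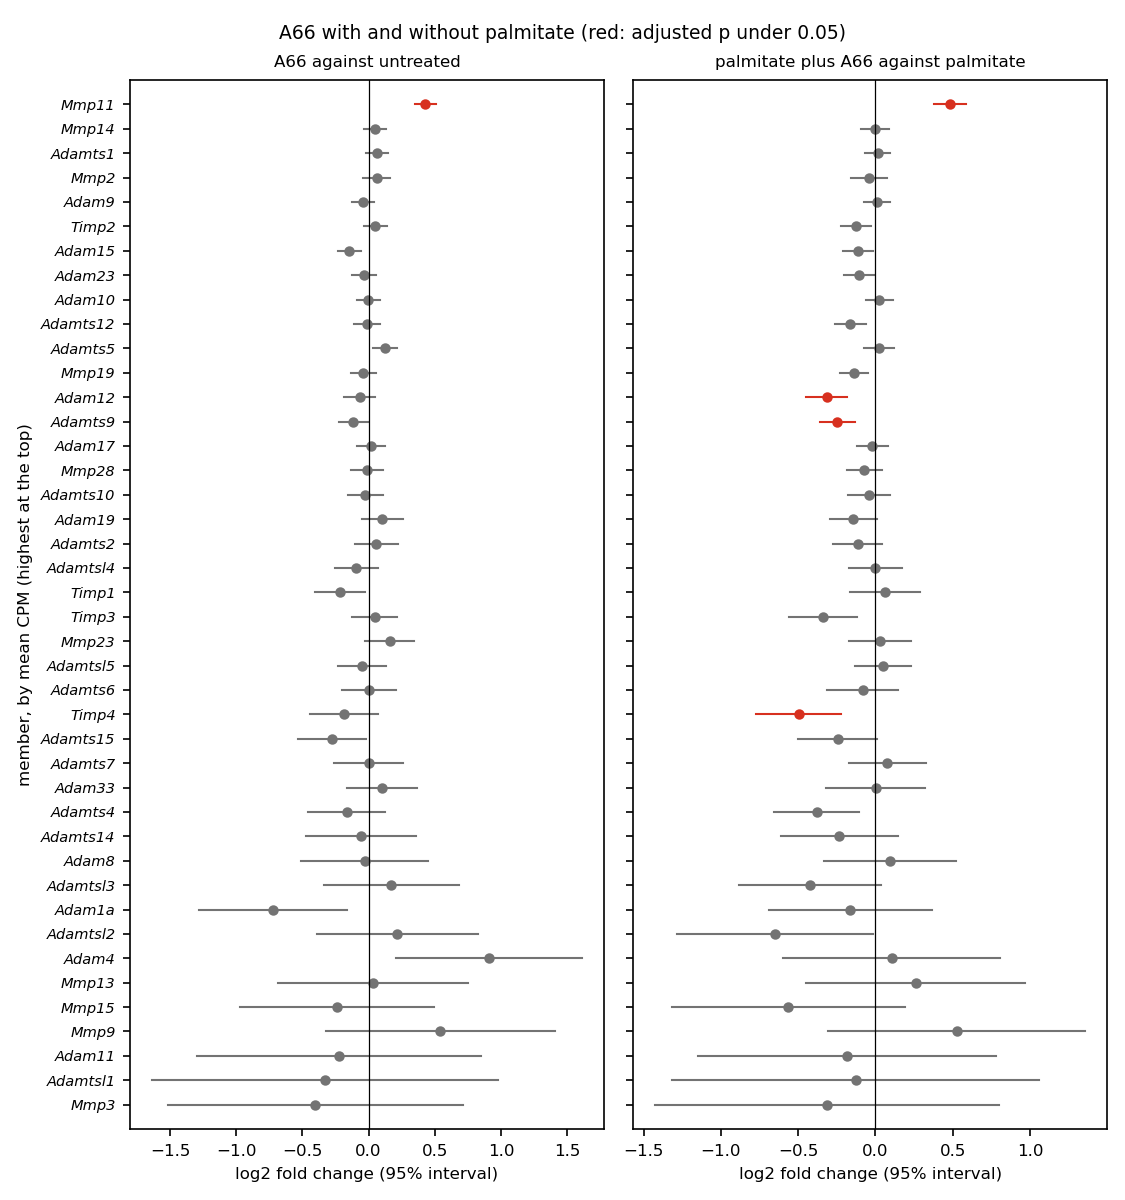
Log2 fold change with its 95% interval for the 42 members tested in both fits, ordered by mean CPM, for A66 against untreated (left) and palmitate plus A66 against palmitate (right), red where the adjusted p was under 0.05. Mmp11 is at 0.43 and 0.48, while Adam12, Adamts9 and Timp4 pass the threshold on the right panel only, at -0.32, -0.25 and -0.50.

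With palmitate alone no member passed the test. By edgeR 0 of 43 were called in either direction, against 0.631% of all genes higher and 0.542% lower. An unadjusted p under 0.05 was found for 7 members, or 16.3% against 12% of all genes. DESeq2 also called 0. The smallest adjusted p was that of Mmp2, at 236.2 and 221.5 CPM untreated and 246.0 and 274.1 CPM with palmitate. These groups did not overlap, but the log2 fold change of 0.18 (95% interval 0.06 to 0.29) had an edgeR adjusted p of 0.152, and only without the low-count filter did it pass, at 0.00234. Adamtsl3 (1.59 and 1.46 against 2.63 and 2.19 CPM, adjusted p = 0.197) and Adamts4, an aggrecanase (4.86 and 4.92 against 6.497 and 6.093 CPM, adjusted p = 0.240), followed with non-overlapping groups that did not pass the test. All 5 ADAMTSL genes had positive values, of 0.04 to 0.66 on the log2 scale, and none of them passed.

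A few markers of both cell types were called with palmitate alone. Of the 9 preadipocyte and fibroblast markers tested Col1a1 (log2 fold change 0.25, edgeR adjusted p = 0.00331) and Postn (0.32, 0.00323) were called higher. Of the 10 adipocyte markers only Lpl, the lipoprotein lipase of adipocytes, was called, lower (-0.19, 0.0331). Col1a1 was called in all 16 alternatives that gave an adjusted p. Postn was lost under DESeq2 (0.067) and without untreated replicate 2 (0.0675), and Lpl passed in 9 of the 16, with adjusted p-values up to 0.313 and losses that included leaving out either untreated library. The summed level of the preadipocyte and fibroblast markers was 1485 and 1429 CPM untreated and 1642 and 1655 CPM with palmitate. That of the adipocyte markers was 16909 and 16915 against 15100 and 15913 CPM. In the first sum Col1a1 went from 626.2 and 626.0 to 718.8 and 774.6 CPM, while Acta2 went from 190.0 and 188.7 to 187.4 and 158.2 CPM. In the second Lpl went from 9851 and 9578 to 8427 and 8736 CPM, while Fabp4 went from 2763 and 2877 to 2759 and 2862 CPM. The median log2 fold changes of the 2 lists were 0.042 and -0.068. The part of these markers in the member values of this comparison was not tested.

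In the presence of A66, palmitate lowered 4 members, Adam12, Adamts12, Adamts9 and Timp3. This comparison shares the palmitate plus A66 libraries with the one above, so the repeated names of Adam12 and Adamts9 are not independent. Adam12 went from 65.7 and 63.4 CPM with A66 to 48.2 and 53.8 CPM with both (log2 fold change -0.34, 95% interval -0.47 to -0.21, edgeR adjusted p = 0.00308). Adamts9 went from 64.5 and 59.2 to 51.2 and 53.9 CPM (-0.23, 95% interval -0.35 to -0.12, adjusted p = 0.0184). In both genes the 2 libraries with palmitate plus A66 were the lowest of all 8.

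Adamts12, an enzyme that degrades cartilage oligomeric matrix protein, was at 151.3 and 146.0 CPM with A66 and at 126.7 and 122.4 CPM with palmitate plus A66. Its log2 fold change was -0.25 (95% interval -0.36 to -0.15, 16.1% lower, edgeR adjusted p = 0.00377). Timp3, which inhibits ADAM17 and several ADAMTS enzymes as well as MMPs, was at 15.3 and 16.5 CPM with A66 and at 12.9 and 11.2 CPM with both. Its log2 fold change was -0.39 (95% interval -0.62 to -0.17, 23.9% lower), with an adjusted p of 0.0489 that lay just inside the threshold. Timp3 shares 21.3% of its exon length with Syn3 on the opposite strand, and Syn3 was at 0.0201 CPM at most. The part of Syn3 reads in the Timp3 result was not tested.

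Of the 43 members 0 were called higher and 4 lower, where 1.46% of all genes were called higher and 1.27% lower. Unadjusted p was under 0.05 for 9 members, or 20.9% against 14.6% of all genes, and DESeq2 called 4 members. The median of the members was 0.03 and that of all genes 0.000. Above 0 lay 25 of the 43 members and 7323 of all 14587 genes. Without A66 replicate 1 no member was called, with adjusted p-values of 0.0671 for Adam12, 0.100 for Adamts12, 0.384 for Adamts9 and 0.140 for Timp3. Without palmitate plus A66 replicate 1 Adamts12 alone remained, with Adam12 at 0.106, Adamts9 at 0.245 and Timp3 at 0.0662, and Timp3 was lost on leaving out A66 replicate 2 (0.274) or palmitate plus A66 replicate 2 (0.305) as well.

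Adipocyte transcripts were lower in the same comparison. Of the 10 adipocyte markers tested 6 were called lower, Adipoq, Plin1, Lpl, Cidec, Retn and Slc2a4, and the summed level of the list was 17206 and 16596 CPM with A66 and 14500 and 15482 CPM with palmitate plus A66. Of the 4 macrophage markers tested only Cd68 was called, higher, at 2.65 and 3.28 against 5.39 and 5.74 CPM. Lyz2 went the other way, at 3.04 and 3.175 against 2.14 and 2.83 CPM. Cd14 (log2 fold change 0.21) and Csf1r (0.30) lay higher without a call. Adgre1 stayed at 0 counts, and the summed level of the 8 macrophage markers was 14.2 and 15.9 CPM with A66 and 17.9 and 19.0 CPM with palmitate plus A66, without overlap. Without A66 replicate 1 Adipoq (adjusted p = 0.159), Plin1 (0.102), Lpl (0.419), Cidec (0.149), Slc2a4 (0.139) and Cd68 (0.0678) were not called, and without palmitate plus A66 replicate 1 the same 5 adipocyte markers were not (0.0897 to 0.378). Slc2a4 was also lost without A66 replicate 2 (0.0786). Lpl passed in only 10 of the 16 alternatives that gave an adjusted p, and was also lost without untreated replicate 2 (0.0506), A66 replicate 2 (0.169) or palmitate plus A66 replicate 2 (0.0614) and with at least 10 counts required in every library (0.0532). Cidec was also lost under DESeq2 (0.0978), while Retn was called in all 16 alternatives that gave an adjusted p (at most 0.0316). The part of these transcripts in the changes of Adam12, Adamts12, Adamts9 and Timp3 was not tested.

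**Figure D4:**
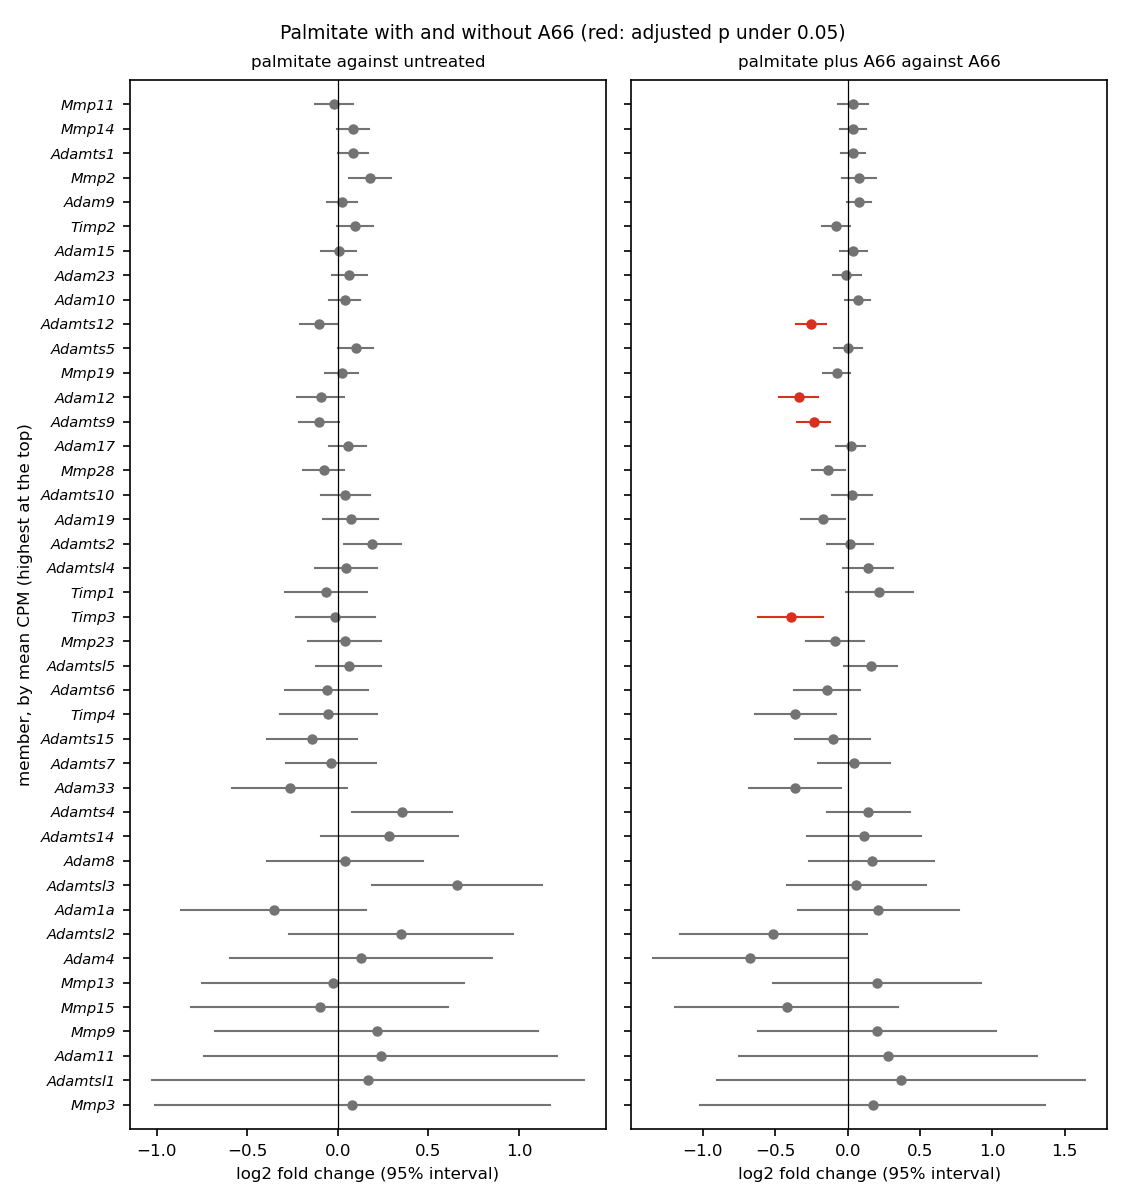
Log2 fold change with its 95% interval for the same 42 members, ordered by mean CPM, for palmitate against untreated (left) and palmitate plus A66 against A66 (right), red where the adjusted p was under 0.05. No member is red on the left, and on the right Adam12, Adamts12, Adamts9 and Timp3 lie at -0.34, -0.25, -0.23 and -0.39.

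The other inhibitors gave no call. Timp2, the most abundant TIMP, was at 195.7 and 187.4 CPM in the untreated libraries, 199.4 and 198.2 under A66, 209.4 and 202.0 under palmitate and 197.1 and 178.1 under both. Its largest difference was that of palmitate plus A66 against palmitate, -0.13 on the log2 scale (95% interval -0.23 to -0.03, edgeR adjusted p = 0.166). Timp1, a secreted inhibitor induced by many cytokines, was at 16.2 and 17.6 CPM in the untreated libraries, 13.2 and 15.98 under A66, 16.5 and 16.1 under palmitate and 19.4 and 14.6 under both. The 2 libraries of the palmitate plus A66 group differed more than most group means, and Timp1 was called higher against A66 only when palmitate plus A66 replicate 2 was left out (0.41, adjusted p = 0.0490).

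The surface proteases Mmp14, Adam10 and Adam17 had small A66 effects with narrow intervals. Mmp14 ranged from 319.7 to 359.8 CPM over the 8 libraries, and its A66 effects were 0.05 (95% interval -0.04 to 0.13) and -0.002 (-0.09 to 0.09) without and with palmitate. Adam10, the sheddase of Notch and many other receptors, ranged from 142.1 to 151.8 CPM, with A66 effects of -0.002 (-0.09 to 0.08) and 0.03 (-0.06 to 0.11). Adam17 ranged from 50.5 to 53.3 CPM, with A66 effects of 0.02 (-0.09 to 0.13) and -0.02 (-0.12 to 0.08). Adam15, at 149.6 to 178.1 CPM, had larger ones, of -0.145 (-0.23 to -0.06) without palmitate and -0.11 (-0.21 to -0.02, edgeR adjusted p = 0.244) with it. Adam9, Adamts1 and Adam23, an ADAM without the zinc signature, also gave no call in any comparison.

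**Figure D5:**
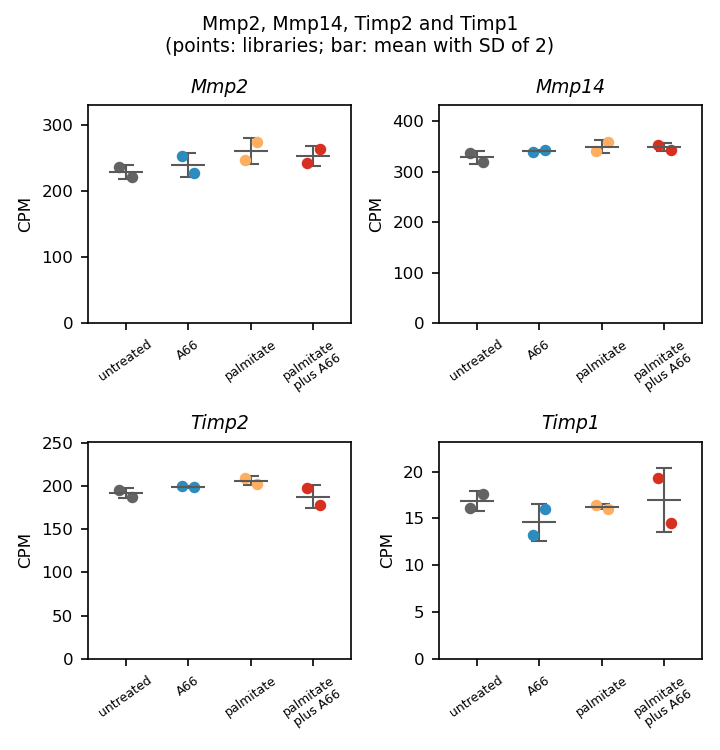
CPM in each library (points) with the mean and SD of the 2 libraries of each group for Mmp2, Mmp14, Timp2 and Timp1, with axes that start at 0. Mmp14 stays between 319.7 and 359.8 CPM, and none of the 4 genes was called in any comparison.

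The genes that activate, assist or receive the action of these proteases were read from 7 lists. Among 9 astacin, pappalysin and other secreted metalloproteinase genes, of which 6 were tested, Pappa rose with A66. Pappa encodes pappalysin-1, which frees insulin-like growth factors by cutting their binding proteins, and it was at 78.4 and 73.4 CPM in the untreated libraries, 93.8 and 92.4 under A66, 82.2 and 79.0 under palmitate and 96.9 and 94.5 under both. The log2 fold changes were 0.29 without palmitate (edgeR adjusted p = 0.000967) and 0.25 with it (0.00269), and every library with A66 lay above every library without it. In the same list Pcolce, the enhancer of procollagen C-proteinase, was lower with palmitate plus A66 than with palmitate (-0.19, adjusted p = 0.0144).

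Among 12 other extracellular proteases and partners, Htra3, a secreted serine protease, was higher with A66 alone (54.3 and 54.1 against 62.2 and 63.1 CPM, log2 fold change 0.21, adjusted p = 0.0243). Bsg (basigin), a surface protein known as an inducer of MMPs, was lower with palmitate plus A66 than with palmitate (337.9 and 356.1 against 287.0 and 282.1 CPM, -0.28, adjusted p = 0.000539). Of 17 proteoglycan and microfibril genes, 14 tested, Vcan (versican), a substrate of several ADAMTS enzymes, was lower with A66 alone (320.6 and 292.6 against 277.8 and 261.0 CPM, -0.19, adjusted p = 0.0320). Palmitate alone raised Lum (lumican, 0.27, adjusted p = 0.0103) and Fbn1 (fibrillin-1, 0.23, 0.0125), and Lum was lower again with palmitate plus A66 against palmitate (-0.26, 0.00654). Of 9 partners of ADAM10 and ADAM17, 7 tested, Tspan5, a tetraspanin that directs ADAM10, was higher with palmitate plus A66 than with A66 (0.43, 0.0365).

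Leaving out libraries kept the calls of Pappa in both comparisons (adjusted p at most 0.0492) and of Bsg (at most 0.0118) and ended others. Htra3 was lost without either A66 library (0.150 and 0.249), Vcan without either A66 library (0.0504 and 0.444) or without untreated replicate 1 (0.128), and Pcolce without palmitate replicate 2 (0.221) or either palmitate plus A66 library (0.127 and 0.0760). Fbn1 was lost without untreated replicate 2 (0.115) or palmitate replicate 1 (0.206). For palmitate alone Lum was lost without untreated replicate 2 (0.118) or palmitate replicate 2 (0.0783), and for palmitate plus A66 against palmitate without palmitate replicate 2 (0.120) or palmitate plus A66 replicate 1 (0.105). Tspan5 was lost without any of the 4 libraries compared (0.0513 to 0.327). Other settings ended calls of 3 of these genes, Htra3 under DESeq2 (0.0659) and with all 8 libraries in the fit (0.135), Vcan with all 8 libraries (0.116) and Tspan5 under DESeq2 (0.0560). Each kept its direction.

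The other 3 lists gave no call in any comparison by edgeR, namely plasminogen activation (9 genes, of which 6 were tested with A66 alone and 7 otherwise), other metalloproteinase inhibitors (8 genes, 3 tested) and proprotein convertases (8 genes, 4 tested). Furin, the convertase that activates Mmp11 and many ADAM proteins, ranged from 59.2 to 68.5 CPM, with log2 fold changes of 0.06 for palmitate alone (adjusted p = 0.737) and -0.10 for palmitate plus A66 against palmitate (0.398). Reck, a membrane-anchored MMP inhibitor, ranged from 10.1 to 12.9 CPM, and its difference of 0.20 for palmitate plus A66 against A66 had an adjusted p of 0.337. The smallest adjusted p of the inhibitor list was that of Cst3 for palmitate alone, at 422.6 and 492.8 against 504.9 and 566.5 CPM (log2 fold change 0.22, 95% interval 0.09 to 0.34, edgeR adjusted p = 0.0875). Cst3 encodes cystatin C, which inhibits cysteine proteases such as cathepsins, so the name of the list does not describe it. That of the plasminogen list was Serpine2 (protease nexin-1), at 34.9 and 33.6 against 38.7 and 39.1 CPM (0.18, adjusted p = 0.165), and Pcsk7, a convertase, had -0.16 with A66 alone (0.269).

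Promoter sequence was available for 29 of the 50 members, as 32 RefSeq entries in GRCm38.p6. The 250 bases before each start were searched on both strands for GGGCGG (GC box), TGANTCA (AP-1 site), GTAAACA (forkhead site) and TATAA (TATA box), and in the windows printed here no matches of different motifs overlapped. The GC box occurred in 19 of the 32 member promoters (59.4%) and in 32.7% of all 32851 promoters. Members had to reach 10 counts while the 32851 promoters were not chosen by counts, so the shares are over unlike sets. The windows of Adam1a, Adamts2, Adamts14, Mmp15, Mmp28, Timp2, Timp3 and a window of Mmp23 overlap annotated exons of their own gene. The AP-1 letters occurred in 3 members, Adam19, Mmp3 and Mmp13 (all promoters 6.75%), the forkhead letters in Adam8, Adam19 and Mmp13 (3.17%) and the TATA letters in 6 entries (22.8%). Mmp11, the member that rose with A66, holds 2 GC boxes, at -52 to -47 and -19 to -14 from its RefSeq start, and Adamts9 holds 1 at -7 to -2 on the other strand. The Mmp11 window lies within the annotated span of the gene, in an intron of 1 longer GENCODE M21 transcript, overlaps no annotated Mmp11 exon and ends directly before the start of another Mmp11 transcript at 75932502. Timp3 holds a GC box at -15 to -10 on the other strand and the TATA letters at -44 to -40, and its window, chr10:86300162-86300411, is not printed because it runs into the annotated exon that starts at 86300372. In Adamts12 and Timp4 none of the 4 motifs was found, and Adam12 was not among the entries. The windows of these 4 members, in GRCm38.p6 at chr10:75932503-75932752 (minus strand, Mmp11), chr6:92943535-92943784 (minus, Adamts9), chr15:11064523-11064772 (plus, Adamts12) and chr6:115252206-115252455 (minus, Timp4), are shown 5′ to 3′ with GC boxes in capitals because these genes were called. A match of letters is a description of the sequence and not a binding site.
Mmp11: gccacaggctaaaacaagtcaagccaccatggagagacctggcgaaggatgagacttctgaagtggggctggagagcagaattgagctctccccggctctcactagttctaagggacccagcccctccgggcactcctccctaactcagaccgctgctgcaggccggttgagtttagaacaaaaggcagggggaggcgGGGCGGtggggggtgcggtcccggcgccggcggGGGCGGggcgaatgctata
Adamts9: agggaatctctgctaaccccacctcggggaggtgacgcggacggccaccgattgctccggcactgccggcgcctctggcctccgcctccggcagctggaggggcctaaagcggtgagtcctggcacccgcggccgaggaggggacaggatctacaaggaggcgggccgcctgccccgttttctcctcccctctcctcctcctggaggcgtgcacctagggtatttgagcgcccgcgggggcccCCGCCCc
Adamts12: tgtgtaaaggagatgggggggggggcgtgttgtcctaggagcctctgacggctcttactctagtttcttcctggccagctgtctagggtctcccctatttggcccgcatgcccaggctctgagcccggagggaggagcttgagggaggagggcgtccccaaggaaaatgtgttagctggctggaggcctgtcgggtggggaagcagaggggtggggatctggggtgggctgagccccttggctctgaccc
Timp4: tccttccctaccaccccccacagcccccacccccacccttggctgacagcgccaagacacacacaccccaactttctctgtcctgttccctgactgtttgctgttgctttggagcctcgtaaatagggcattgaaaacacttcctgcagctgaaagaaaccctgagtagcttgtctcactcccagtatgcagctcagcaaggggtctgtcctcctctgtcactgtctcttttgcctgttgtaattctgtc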

How the data were processed

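The authors aligned paired-end reads of poly(A)-selected, strand-specific libraries to GRCm38 with TopHat2 2.0.11 and counted reads per gene with HTSeq. The deposited values used here are these raw counts for 8 libraries, 2 in each of 4 groups. The annotation release and strand setting are not given in the sources used here. A further 6 columns hold the authors' own DESeq2 mean, fold change, error, statistic and p-values and were not used.

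Of 43629 Ensembl IDs 42462 had a symbol in GENCODE M21 (GRCm38), and 327 with counts had none. Counts were fitted with edgeR 4.0.16 (R 4.3.3): trimmed-mean (TMM) scaling, filterByExpr with a minimum count of 10, and the quasi-likelihood test with Benjamini-Hochberg adjustment over all genes tested. A66 against untreated used its 4 libraries (14158 genes) and the other comparisons all 8 (14587 genes). Intervals of 95% come from the model's standard error. The fitted biological coefficient of variation was 0.0377 and 0.0406. The functions were tested on simulated counts with known changes. CPM (counts scaled to library size) were TMM-scaled over 8 libraries and, between genes, divided by merged exon length. Promoters are RefSeq's, of GRCm38.p6.

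Members and lists were chosen with earlier results of these data known. By rule the named members were the TIMPs, the 12 highest by mean CPM, members called and the 2 smallest p-values in each direction. The rule also took the 2 smallest p-values of each list, of which the called genes and some others are printed. Mmp3, Mmp9, Mmp13, Mmp19, Adam2, Adam17, Adam19, Adam33, Adamts4, Adamts8 and the overlapping Chchd10, Syn2, Syn3, Mapkapk5 and Gm42878 were named after their values were seen. Alternatives covered scaling, filters, DESeq2 1.42.0, the replicate block, transcript length, the libraries fitted, a minimum fold change and leaving out each library.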

Additional observations from a re-analysis of the deposited data

How the results depend on the processing

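Of 959 alternative values for members, 849 kept their call or, where not called, stayed within their standard error, 77 moved by more without a call, 17 passed the threshold anew, 16 lost it and 0 turned their direction with a call. Mmp11 kept both of its calls in every alternative except a required change of 1.5-fold, since it rose by less. The number of members called fell to 0 in the 3 comparisons with calls when a change of at least 1.5-fold was required. For A66 against untreated 2 members were called on scaling by library size only (Adam15 added, lower) and 1 to 3 on leaving out a library, for palmitate against untreated 1 (Mmp2) without the low-count filter, and on leaving out a library 1 to 5 for palmitate plus A66 against palmitate and 0 to 5 for palmitate plus A66 against A66, where Adam33 joined, lower, without palmitate plus A66 replicate 2 (log2 fold change -0.64, adjusted p = 0.0470, against -0.36 and 0.248 with all libraries). For palmitate plus A66 against palmitate Adamts12, Timp3 and Mmp19 joined the calls under some settings, and scaling by library size only and no low-count filter each gave 6 members.

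Over all genes, in the order A66 against untreated, palmitate against untreated, palmitate plus A66 against palmitate and palmitate plus A66 against A66, calls were 261, 171, 410 and 398. A minimum fold change left 15, 10, 46 and 36, and no low-count filter gave 459, 396, 652 and 664. Leaving out a library gave 98 to 635, 71 to 245, 147 to 494 and 107 to 502, and fitting only the 4 libraries of the last comparison gave 689. Scaling by library size only moved the split of higher against lower calls from 152 and 109 to 126 and 154 for A66 against untreated, from 142 and 268 to 107 and 350 for palmitate plus A66 against palmitate and from 213 and 185 to 180 and 266 for palmitate plus A66 against A66. The interaction had 1 call, and 0 with a minimum fold change, 2 with library-size scaling, 6 with DESeq2, 91 without the filter, 3 with the replicate block, 2 with the length correction and 0 to 10 on leaving out a library. The cause of these shifts was not tested.

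Same-numbered libraries correlated at -0.147 to 0.153 over 8956 genes in their deviations from the group means, so the numbers were not taken to pair the libraries. With the replicate block the calls over all genes were 282, 195, 448 and 438 and those among members 1, 0, 5 and 4, the addition being Adamts12 for palmitate plus A66 against palmitate (adjusted p = 0.0382). With crossed numbers, chosen after seeing the data, palmitate plus A66 against A66 gave 376 calls over all genes and 4 among members. Members under 1 CPM had wide intervals, so modest changes in them were not detectable at this depth.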
